A study of Mus musculus with 12 samples.

Results

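A set of 10 genes of the neural lineage was followed through the differentiation of mouse embryonic stem (ES) cells with and without the receptor Notch1: Sox1, Pax6, Nes, Zic2, Otx1, Otx2, Six3, Pou3f1, Map2 and Stmn2. They were taken by name out of 18176 loci that could be linked to a single gene among 40039 loci, and all 10 were found. The choice was made with earlier results of these data known. Shares of all loci set beside these genes are therefore a description and no independent test. Poly(A) RNA came from 4 groups of 3 libraries: Notch1-/- cells at day 6, WT cells at day 6, Notch1-/- cells at day 0 and WT cells at day 0. Both genotypes were of strain C57BL/6J. At day 0 the cells were undifferentiated and had been kept with LIF on fibroblast feeders or on gelatin, and it is not stated which support each library had. At day 6 they had formed embryoid bodies, aggregates started in hanging drops under a protocol for cardiac differentiation. The labels give neither the number of ES cell clones per genotype nor the part of Notch1 that was deleted. The design speaks of biological replicates without naming separate cultures, so a p-value here reflects only how much these libraries varied, and that variation may be technical.

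Neural tissue arises from the epiblast when cells take up neither mesoderm nor endoderm fate. Sox1, Pax6 and Zic2 are transcription factors of the neural plate and Nes encodes nestin, an intermediate filament protein of neural progenitors. Otx1, Otx2 and Six3 are homeobox factors of the developing head, and Pou3f1 (also called Oct6) is a POU factor of the epiblast and of early neural commitment. Map2 and Stmn2 encode microtubule proteins of neurons. Otx2, Zic2 and Pou3f1 are also known from primed epiblast cells that are not neural. Notch receptors are known for holding neural progenitors undifferentiated, through the DNA-binding factor RBPJ and repressors of the Hes family.

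A total of 3 promoter windows is shown first because each holds a match to a motif of this pathway or of the Otx factors themselves. RefSeq windows of 300 bases, from 250 before to 50 after a start, were at hand for Otx2 (4 starts), Pax6 (2 starts), Sox1, Six3, Map2 and Nes, which makes 10 windows for 6 genes in build GRCm38.p6. They were searched on both strands for TGGGAA (core of the RBPJ motif), CACNAG (the N box of Hes factors) and TAATCC (core of the Otx motif), and no match overlapped a match of another motif. Capitals mark the match.
Sox1, chr8:12395269-12395568, plus strand: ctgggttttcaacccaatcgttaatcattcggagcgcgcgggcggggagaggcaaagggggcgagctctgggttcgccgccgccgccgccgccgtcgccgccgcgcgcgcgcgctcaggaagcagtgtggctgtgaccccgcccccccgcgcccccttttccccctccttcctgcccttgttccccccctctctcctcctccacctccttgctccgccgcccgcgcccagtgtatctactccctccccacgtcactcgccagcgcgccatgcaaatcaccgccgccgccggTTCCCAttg
Pax6, chr2:105682213-105682512, plus strand: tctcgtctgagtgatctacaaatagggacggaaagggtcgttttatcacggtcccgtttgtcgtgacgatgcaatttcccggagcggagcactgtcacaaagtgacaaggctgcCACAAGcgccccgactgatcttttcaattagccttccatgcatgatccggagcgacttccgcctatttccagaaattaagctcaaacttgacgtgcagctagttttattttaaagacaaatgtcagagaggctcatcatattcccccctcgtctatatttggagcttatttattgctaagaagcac
Otx2, chr14:48665060-48665359, minus strand: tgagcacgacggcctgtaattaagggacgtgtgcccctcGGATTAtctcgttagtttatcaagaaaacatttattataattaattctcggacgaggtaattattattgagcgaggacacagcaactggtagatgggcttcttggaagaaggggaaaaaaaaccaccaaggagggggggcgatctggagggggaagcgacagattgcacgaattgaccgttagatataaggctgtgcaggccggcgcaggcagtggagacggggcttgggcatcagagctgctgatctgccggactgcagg
The RBPJ core was present in 1 of the 10 windows, that of Sox1, where it lies 41 bases downstream of the start on the opposite strand. Of all 32817 RefSeq windows, 25.6% hold it. The N box was present in 1 window of Pax6, at 136 bases upstream of the start, against 42.5% of all windows. The Otx core was present in 1 window of Otx2, at 211 bases upstream of the start and on the opposite strand, against 7.06% of all windows. Each match is a description of letters in these windows.

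Each library held between 100637179 and 134662426 counts. Levels are given as normalised read counts (CPM, scaled to the TMM-adjusted library size) and, where genes are compared with each other, as the deposited FPKM, which are scaled by transcript length. Changes are log2 values with standard errors (SE) from edgeR's quasi-likelihood test over 23991 loci, and a gene is called higher or lower at a Benjamini-Hochberg adjusted p under 0.05. Notch1 (chr2:26301026-26363148, mm9, minus strand) had 6.80, 4.90 and 4.95 CPM in the Notch1-/- day 6 libraries, against 38.0, 30.8 and 31.1 CPM in WT at day 6. It had 3.80, 3.87 and 4.59 CPM in the Notch1-/- day 0 libraries, against 61.6, 24.7 and 34.0 CPM in WT at day 0, so that the genotypes did not overlap on either day. Zfp42, a marker of undifferentiated ES cells, averaged 132 ± 21.3 CPM in Notch1-/- cells and 111 ± 15.9 CPM in WT cells at day 6, and 581 ± 163 CPM in Notch1-/- cells and 769 ± 205 CPM in WT cells at day 0 (SD, n = 3 each). In bulk RNA, fewer cells expressing a gene and less RNA of it per cell cannot be told apart.

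The loci of the 10 genes, in mm9 coordinates, lie on 8 chromosomes. Otx2 (chr14:49275535-49287580, minus strand) and Zic2 (chr14:122871406-122880084, plus strand) share a chromosome, as do Stmn2 (chr3:8508932-8561604, plus strand) and Nes (chr3:87774960-87784373, plus strand). The others are Otx1 (chr11:21894767-21902981, minus strand), Sox1 (chr8:12395519-12399555, plus strand), Pax6 (chr2:105509053-105544990, plus strand), Six3 (chr17:86012948-86025531, plus strand), Map2 (chr1:66221857-66489159, plus strand) and Pou3f1 (chr4:124334889-124343464, plus strand). Sox1 has a single exon and lies in an intron of the noncoding gene Sox1ot. Of the 10 loci, 6 share no exonic base with another locus. The shared part of the exon length was 10.99% for Otx2, 48.84% for Nes, 56.98% for Pax6 (with Elp4 and others on the opposite strand) and 100% for Zic2. The strand setting of the counting is not given in the sources used here, so FPKM may not separate a gene from its antisense partner. Reads in shared exons appear to be lost from the counts. Zic2 had 0 counts in all 12 libraries although its FPKM values ran from 3.35 to 56.2, and it is therefore described by FPKM. The locus opposite Nes also had 0 counts, at a mean of 4.93 FPKM. Counts of Nes and Pax6 may thus come only from the unshared part of their exons.

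**Figure D1:**
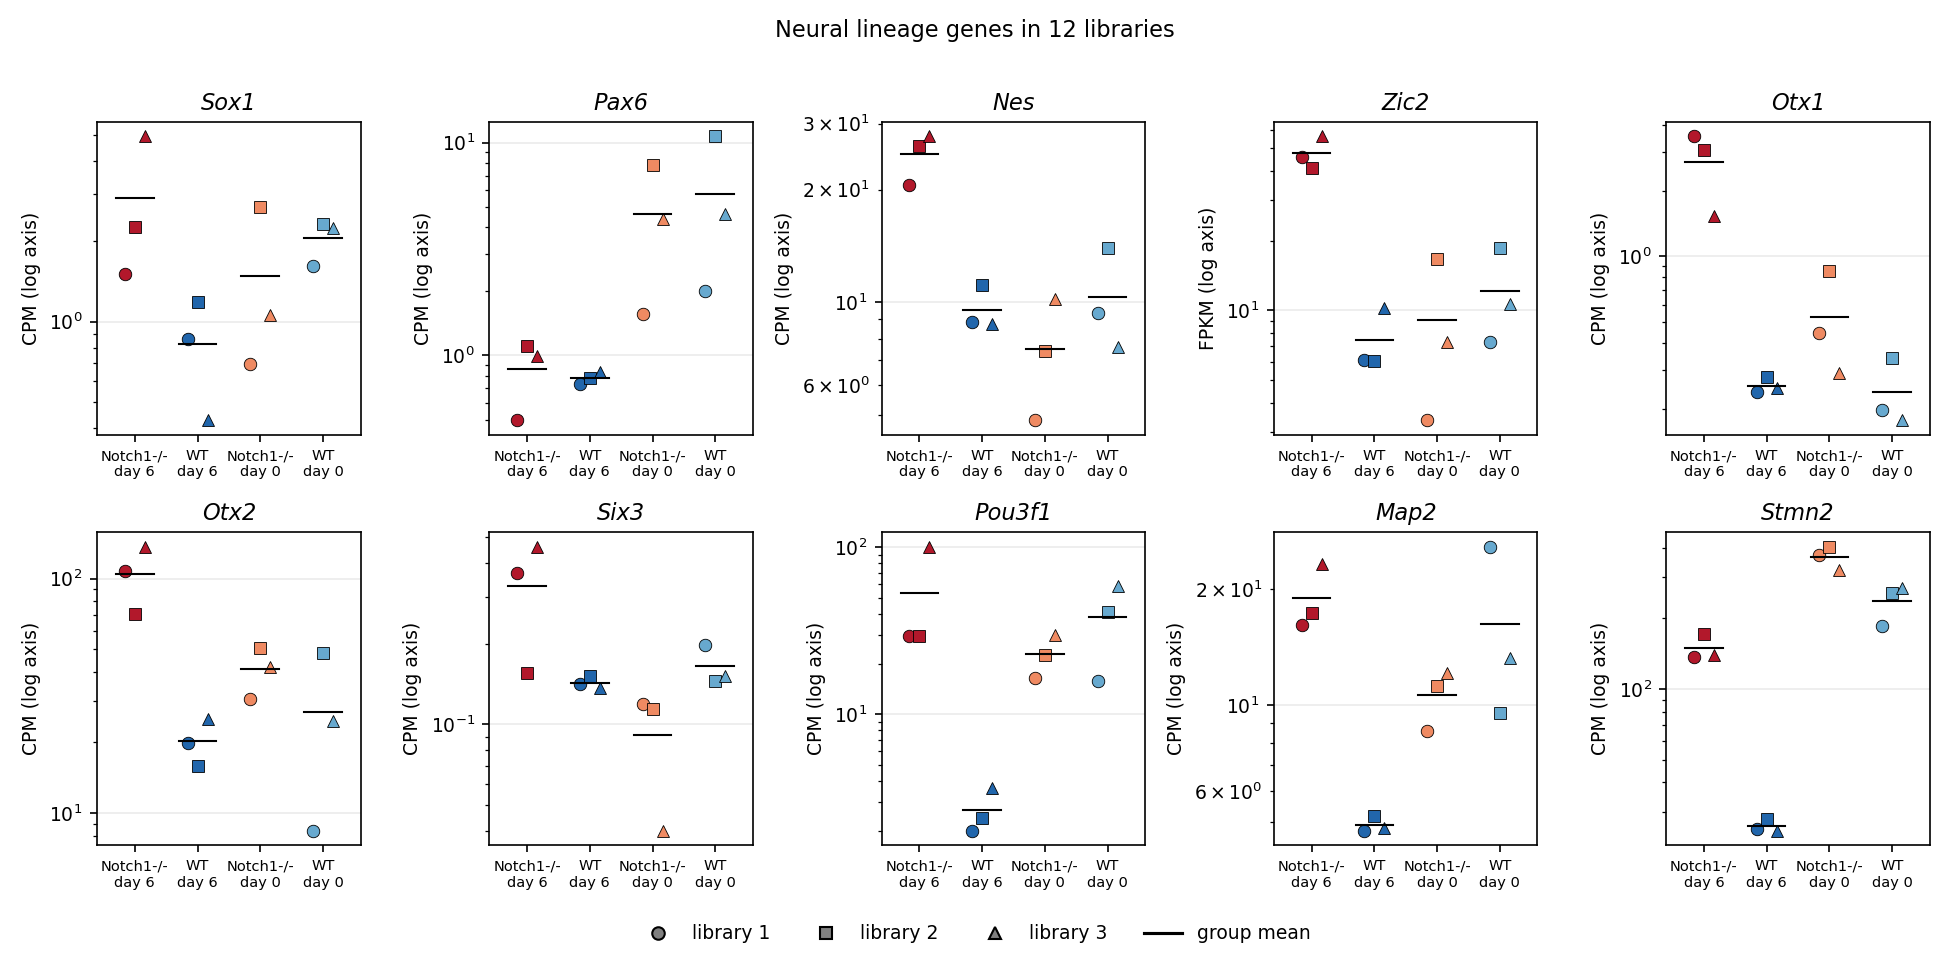
Level of each gene in each of the 12 libraries (points, marked by library number; short lines, group means), in CPM or, for Zic2, in FPKM, on log axes. All genes but Pax6 lie higher in every Notch1-/- day 6 library than in every WT day 6 library. How many of all loci do so was not counted.

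The contrast with the most calls among these genes was between the genotypes at day 6, which asks how the neural genes of embryoid bodies differ without Notch1. Among the genes with counts, 7 of 9 were higher in Notch1-/- embryoid bodies (Otx1, Otx2, Sox1, Map2, Stmn2, Nes and Pou3f1), 0 were lower (0 also at an unadjusted p under 0.05 and with DESeq2), and Zic2 was higher by FPKM. Among all loci tested, 13.7% were called higher and 14.4% lower in this contrast. By FPKM, limma called 13.1% of 18505 loci higher and 15.0% lower. In all, 8 of the 9 genes with counts, all but Pax6, were higher in each Notch1-/- library than in each WT library. Six3 was so only by 0.156 against 0.152 CPM. The share of all loci that separate in this way was not counted, so this describes these libraries only.

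Among the progenitor genes, Sox1, the earliest of the set to mark neural plate, had 1.51, 2.26 and 4.93 CPM in Notch1-/- libraries 1, 2 and 3 at day 6, against 0.861, 1.18 and 0.427 CPM in WT libraries at day 6. The log2 change was 1.81 (SE 0.56, adjusted p = 0.0281, edgeR). The groups did not overlap, but the lowest Notch1-/- library was close to the highest WT library. The call was lost without Notch1-/- day 6 library 3 (1.20, adjusted p = 0.147), without WT day 6 library 1 (1.85, adjusted p = 0.0824) or library 3 (1.51, adjusted p = 0.104), and on log2(FPKM + 1) values (adjusted p = 0.0619, limma). Pax6, a paired homeobox factor of forebrain and eye, had 0.495, 1.11 and 0.990 CPM in Notch1-/- libraries at day 6 and 0.737, 0.787 and 0.838 CPM in WT libraries at day 6. The WT values lie inside the Notch1-/- range, and the change was 0.14 (SE 0.61, adjusted p = 0.891). Nes had 20.6, 26.2 and 27.7 CPM in Notch1-/- libraries, against 8.85, 11.1 and 8.75 CPM in WT libraries. Its change was 1.38 (SE 0.29, adjusted p = 0.00374), a 2.60-fold higher level with every Notch1-/- library well above WT. Zic2, a zinc finger factor of the neural plate and forebrain, had 45.8, 41.3 and 56.2 FPKM in Notch1-/- libraries, against 6.09, 6.02 and 10.2 FPKM in WT libraries. On the log2(FPKM + 1) scale this was a change of 2.55 (SE 0.46, adjusted p = 0.00216, limma), and the groups were far apart.

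Both Otx genes, which pattern forebrain and midbrain, were higher in Notch1-/- embryoid bodies. Otx1 had 3.54, 3.07 and 1.53 CPM in Notch1-/- libraries at day 6, against 0.240, 0.279 and 0.248 CPM in WT libraries. Its change was 3.40 (SE 0.47, adjusted p = 0.000241, edgeR), or 10.6-fold, from a very low level in WT. Otx2 had 108, 70.4 and 137 CPM in Notch1-/- libraries, against 19.8, 15.9 and 25.1 CPM in WT libraries. The change of Otx2 was 2.37 (SE 0.48, adjusted p = 0.00307), or 5.18-fold, with no overlap. Six3, a factor of the most anterior forebrain and the eye, had 0.369, 0.156 and 0.462 CPM in Notch1-/- libraries and 0.141, 0.152 and 0.137 CPM in WT libraries. Notch1-/- libraries 1 and 3 stood above WT and library 2 was nearly level with it. The change of 1.19 (SE 0.47) was not called (adjusted p = 0.0754), and it was called without Notch1-/- day 6 library 2 (1.52, adjusted p = 0.0371) and in a fit of these 2 groups alone (adjusted p = 0.0402). Six3 rested on 4 to 62 counts per library, the fewest of the 9 genes.

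Pou3f1 showed the greatest change of the set in this contrast. It had 29.5, 29.3 and 101 CPM in Notch1-/- libraries at day 6, against 2.01, 2.38 and 3.64 CPM in WT libraries. The change was 4.31 (SE 0.59, adjusted p = 0.000217, edgeR), or 19.9-fold. Library 3 stood far above libraries 1 and 2, and without it the change was 3.46 (adjusted p = 0.000373). Library 3 was also the highest Notch1-/- day 6 library for Sox1, Otx2, Six3, Nes, Zic2 and Map2, while Otx1 was lowest in it.

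Of the neuronal genes, Map2, a microtubule-associated protein of dendrites, had 16.2, 17.4 and 23.2 CPM in Notch1-/- libraries at day 6, against 4.74, 5.16 and 4.80 CPM in WT libraries. The change was 1.95 (SE 0.32, adjusted p = 0.000747, edgeR), or 3.86-fold. Stmn2, a stathmin that destabilises microtubules in growing neurites, had 137, 171 and 140 CPM in Notch1-/- libraries, against 25.3, 27.8 and 24.9 CPM in WT libraries. Its change was 2.52 (SE 0.16, adjusted p = 1.24e-06), or 5.75-fold. The groups lay far apart for both genes.

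Day 6 was then set against day 0 within each genotype. In Notch1-/- cells, Otx1, Otx2, Six3 and Nes rose, Zic2 rose by FPKM, and Pax6 and Stmn2 fell. That is 4 of 9 genes higher and 2 lower by counts, against 17.2% of all loci called higher and 18.7% lower. By FPKM, 18.1% of loci were called higher and 14.2% lower. In WT cells, 0 of the 9 genes rose (0 also at an unadjusted p under 0.05 and with DESeq2) and 4 fell (Pax6, Map2, Stmn2 and Pou3f1), against 18.4% of all loci called higher and 24.7% lower. By FPKM, 20.8% of loci were called higher and 21.4% lower in WT, and Zic2 was not called. Upper quartile scaling moved the median of all loci by -0.16 (log2) over time in both genotypes, and the higher share of all calls was then 37.1% in place of 47.8% in Notch1-/- cells and 33.0% in place of 42.7% in WT cells.

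Nes and Otx1 had the smallest p among the genes that rose in Notch1-/- cells. Otx1 had 0.446, 0.853 and 0.291 CPM in Notch1-/- libraries and 0.198, 0.341 and 0.177 CPM in WT libraries at day 0. It rose by 2.35 (SE 0.44, adjusted p = 0.00157) in Notch1-/- cells, with a change of 0.10 (SE 0.46, adjusted p = 0.876) in WT cells. Every Notch1-/- day 6 library exceeded every day 0 library, while in WT the days overlapped. Nes had 4.84, 7.43 and 10.2 CPM in Notch1-/- libraries and 9.37, 14.0 and 7.58 CPM in WT libraries at day 0. It rose by 1.73 (SE 0.29, adjusted p = 0.000741) in Notch1-/- cells, and its change in WT cells was -0.11 (SE 0.28, adjusted p = 0.776). Again the Notch1-/- days were separate and the WT days overlapped.

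Otx2 had 30.6, 50.5 and 41.8 CPM in Notch1-/- libraries and 8.41, 48.1 and 24.6 CPM in WT libraries at day 0. Its rise in Notch1-/- cells was 1.36 (SE 0.46, adjusted p = 0.0374), and its change in WT cells was -0.41 (SE 0.46, adjusted p = 0.493). The WT day 0 libraries were widely spread, and the rise in Notch1-/- cells was not called with upper quartile scaling (1.20, adjusted p = 0.0671), on log2(FPKM + 1) values (0.96, adjusted p = 0.105, limma) or without any one of Notch1-/- day 0 library 1 (adjusted p = 0.0989), library 2 (0.0567) and library 3 (0.0936) and Notch1-/- day 6 library 1 (0.0789) and library 3 (0.116). Six3 had 0.119, 0.114 and 0.0401 CPM in Notch1-/- libraries and 0.198, 0.145 and 0.152 CPM in WT libraries at day 0. It rose by 1.83 (SE 0.49, adjusted p = 0.0115) in Notch1-/- cells, and its change in WT cells was -0.20 (SE 0.48, adjusted p = 0.757). All of these Six3 levels were very low, and the rise was not called without Notch1-/- day 6 library 3 (1.51, adjusted p = 0.0517). Zic2 had 3.35, 16.7 and 7.33 FPKM in Notch1-/- libraries and 7.28, 18.5 and 10.6 FPKM in WT libraries at day 0. On the log2(FPKM + 1) scale it rose by 2.49 (SE 0.46, adjusted p = 0.00241, limma) in Notch1-/- cells, with a change of -0.58 (SE 0.46, adjusted p = 0.328) in WT cells. Library 2 was the highest day 0 library in both genotypes for Zic2, Otx1 and Otx2.

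Stmn2 and Pax6, which fell in both genotypes, had their highest levels in undifferentiated cells. Stmn2 had 372, 404 and 322 CPM in Notch1-/- libraries and 186, 257 and 270 CPM in WT libraries at day 0. It fell by 1.29 on the log2 scale (SE 0.16, adjusted p = 8.43e-05) in Notch1-/- cells and by 3.19 (SE 0.17, adjusted p = 8.7e-07) in WT cells. The days did not overlap in either genotype, and this neuronal gene was highest before differentiation. Pax6 had 1.57, 7.85 and 4.39 CPM in Notch1-/- libraries and 2.01, 10.7 and 4.61 CPM in WT libraries at day 0. It fell by 2.41 (SE 0.62, adjusted p = 0.00959) in Notch1-/- cells and by 2.87 (SE 0.63, adjusted p = 0.00306) in WT cells. Library 2 was highest and library 1 lowest in both genotypes. Without Notch1-/- day 0 library 2 the fall in Notch1-/- cells was -1.79 (adjusted p = 0.0452), and without WT day 0 library 2 the fall in WT cells was -2.06 (adjusted p = 0.0129). On log2(FPKM + 1) values the change of Pax6 was not called in Notch1-/- cells (adjusted p = 0.0609, limma).

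Pou3f1 and Map2 fell in WT cells and were not called in Notch1-/- cells. Pou3f1 had 16.6, 22.8 and 29.7 CPM in Notch1-/- libraries and 15.9, 40.8 and 58.7 CPM in WT libraries at day 0. It fell by 3.84 (SE 0.57, adjusted p = 0.000232) in WT cells, or 14.4-fold, and its change in Notch1-/- cells was 1.21 (SE 0.52, adjusted p = 0.0854). The change in Notch1-/- cells was called without WT day 0 library 1 (1.21, adjusted p = 0.0496). Map2 had 8.57, 11.2 and 12.1 CPM in Notch1-/- libraries and 25.8, 9.54 and 13.3 CPM in WT libraries at day 0. It fell by 1.73 (SE 0.31, adjusted p = 0.0009) in WT cells. Its change in Notch1-/- cells was 0.83 (SE 0.31, adjusted p = 0.0508), on the edge of the threshold, with no overlap between the days. That change was called without WT day 0 library 1 (0.84, adjusted p = 0.00836), which stood apart at 25.8 CPM, without WT day 0 library 2 (0.82, adjusted p = 0.0215) and with DESeq2 (0.78, adjusted p = 0.0439). Sox1 had 0.694, 2.68 and 1.06 CPM in Notch1-/- libraries and 1.62, 2.31 and 2.24 CPM in WT libraries at day 0. Its changes were 0.97 (SE 0.54, adjusted p = 0.182) in Notch1-/- cells and -1.32 (SE 0.55, adjusted p = 0.0705) in WT cells. The change in Notch1-/- cells was called without Notch1-/- day 0 library 2 (1.71, adjusted p = 0.0358). The change in WT cells was called without Notch1-/- day 0 library 1 (-1.31, adjusted p = 0.0477) or library 2 (-1.31, adjusted p = 0.0411), neither of which is a WT library. It was also called in a fit of the 2 WT groups alone (-1.32, adjusted p = 0.0266) and with upper quartile scaling (-1.49, adjusted p = 0.044). Every WT day 6 library lay below every WT day 0 library for Sox1.

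**Figure D2:**
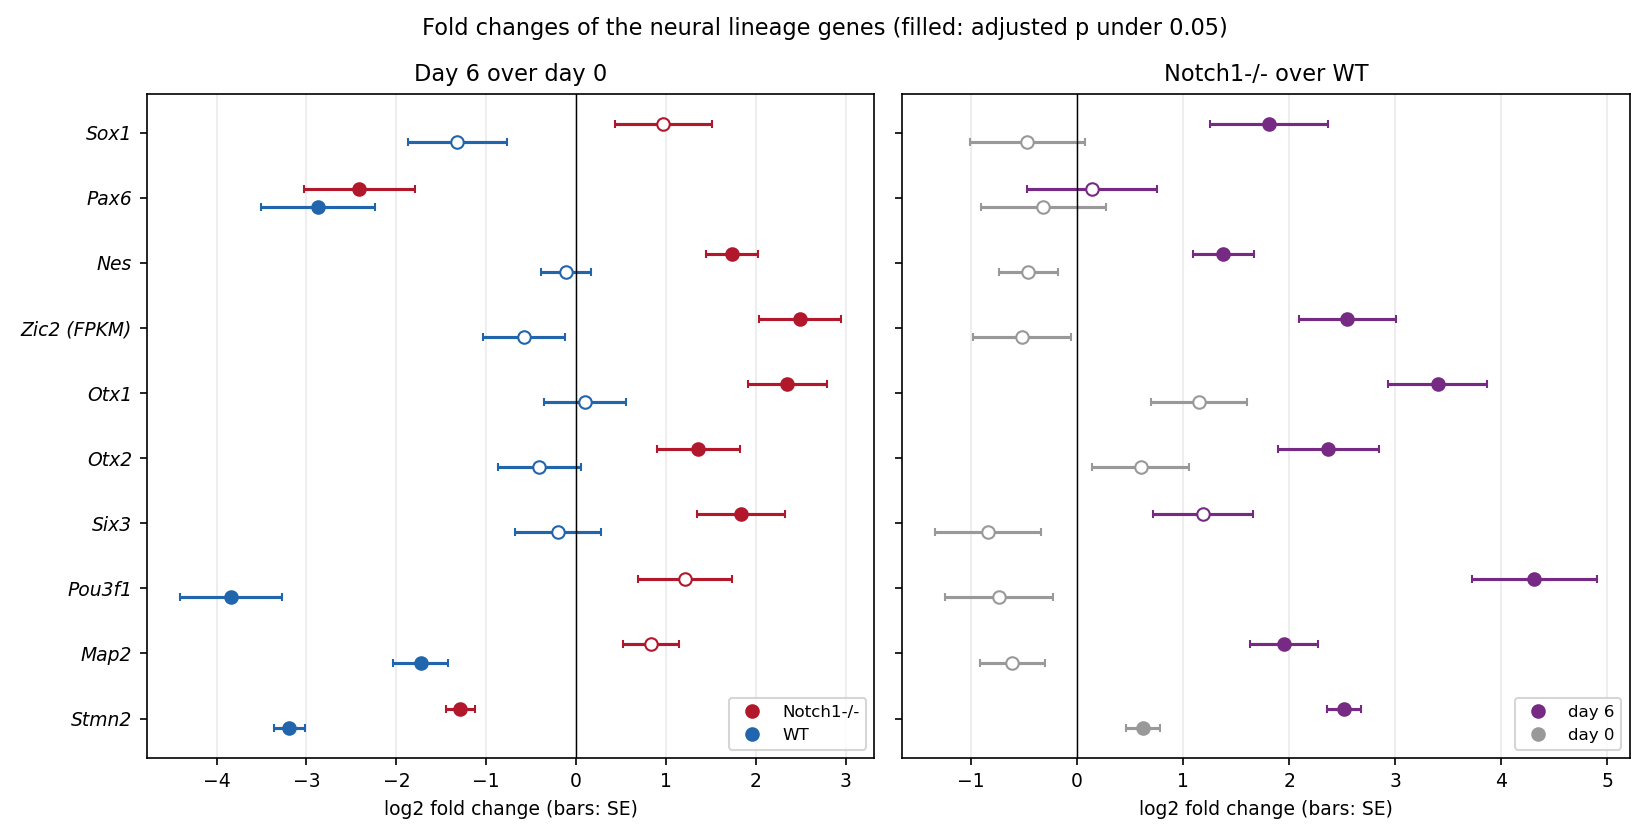
Log2 fold changes with SE for day 6 over day 0 in each genotype (left) and for Notch1-/- over WT on each day (right); filled points passed an adjusted p of 0.05, and Zic2 is on the log2(FPKM + 1) scale. The red points of Notch1-/- cells lie to the right of the blue points of WT cells for all 10 genes, and at day 6 every gene but Pax6 and Six3 is filled and positive.

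The difference between the 2 genotypes' changes over time was tested directly. It was positive and called for 5 of the 9 genes with counts, namely Otx1, Map2, Stmn2, Nes and Pou3f1, and for Zic2 by FPKM, against 6.36% of all loci called in that direction by counts and 6.50% by FPKM. In the negative direction 0 genes were called (0 also at an unadjusted p under 0.05 and with DESeq2), against a background in which 4.92% of loci were called by counts and 6.37% by FPKM. The difference was 5.05 (SE 0.76, adjusted p = 0.00148) for Pou3f1, 2.56 (SE 0.44, adjusted p = 0.00315) for Map2, 1.84 (SE 0.40, adjusted p = 0.0121) for Nes and 1.90 (SE 0.22, adjusted p = 0.000333) for Stmn2. For Stmn2 it means a smaller fall in Notch1-/- cells, not a rise. For Zic2 it was 3.07 (SE 0.64, adjusted p = 0.0117, limma) on the log2(FPKM + 1) scale. For Otx1 it was 2.24 (SE 0.63, adjusted p = 0.0379). The call of Otx1 was lost when any one of 8 libraries was left out: Notch1-/- day 6 library 1 (adjusted p = 0.0902) or 2 (0.0834), WT day 6 library 1 (0.0947), 2 (0.0844) or 3 (0.0834), Notch1-/- day 0 library 1 (0.0556) or 3 (0.0787), or WT day 0 library 2 (0.0669). Sox1 (2.29, SE 0.77, adjusted p = 0.0762), Six3 (2.04, SE 0.68, adjusted p = 0.0739), Otx2 (1.77, SE 0.65, adjusted p = 0.101) and Pax6 (0.46, SE 0.84, adjusted p = 0.785) were not called. Leaving out 1 library gave calls for Otx2 (without WT day 0 library 1, 2.20, adjusted p = 0.0116), Sox1 (without Notch1-/- day 0 library 2, 3.02, adjusted p = 0.0247) and Six3 (without Notch1-/- day 6 library 2, 2.36, adjusted p = 0.0447). Without Notch1-/- day 6 library 3 the difference of Pou3f1 was 4.20 (adjusted p = 0.0017).

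In undifferentiated cells few of these genes passed the test between genotypes. Stmn2 was the only 1 of the 9 genes called, at 366 ± 41.2 CPM in Notch1-/- cells and 238 ± 45.3 CPM in WT cells at day 0 (SD, n = 3 each; log2 change 0.62, SE 0.16, adjusted p = 0.0251, edgeR). Across all loci 3.71% were called higher and 5.86% lower, and 0 of the 9 genes were called lower (0 also at an unadjusted p under 0.05 and with DESeq2). The call was lost without Notch1-/- day 0 library 2 (0.56, adjusted p = 0.0969), without WT day 0 library 1 (0.47, adjusted p = 0.0711) and in a fit of these 2 groups alone (0.65, adjusted p = 0.135). The numbers were taken to pair the day 0 libraries of the genotypes. This is an assumption. By the numbers in the submitters' names, library 1 matches across the genotypes. WT library 3 matches Notch1-/- library 2 in those names, which goes against the pairing used here. Otx1, Otx2 and Stmn2 were higher in the Notch1-/- library of each of the 3 pairs, and Pax6, Six3 and, by FPKM, Zic2 were lower in each of the 3. Some gaps were small, as for Otx2 in library 2 (50.5 against 48.1 CPM) and Pax6 in library 3 (4.39 against 4.61 CPM). The share of all loci that keep 1 direction in the 3 pairs was not counted, so these directions show no difference between genotypes. Sox1, Map2, Nes and Pou3f1 went different ways among the pairs by CPM. With the pairs as a block, Stmn2 was again the 1 gene called higher and 0 were called lower. Six3 was lower in every Notch1-/- library than in every WT library at day 0, with a change of -0.84 (SE 0.50) that was not called (adjusted p = 0.285). The other changes lay between -0.74 (SE 0.51) for Pou3f1 and 1.15 (SE 0.45) for Otx1. Without WT day 0 library 2, Otx1 (1.51, adjusted p = 0.0473) and Otx2 (1.32, adjusted p = 0.0405) were called higher and Map2 (-0.87, adjusted p = 0.038) lower. Zic2 by FPKM had a change of -0.52 (SE 0.46, adjusted p = 0.473, limma), where 2.94% of loci were called higher and 3.89% lower.

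**Figure D3:**
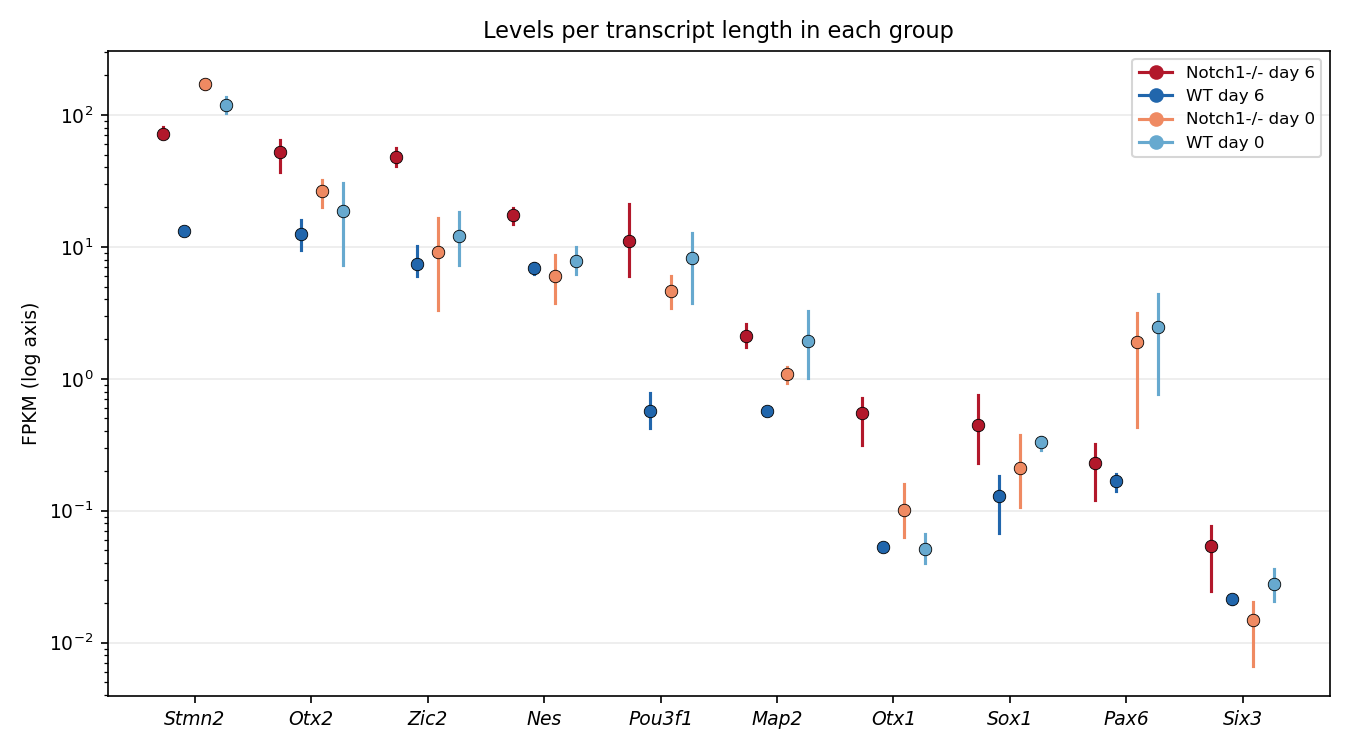
Level per transcript length (FPKM, log axis) of each gene in each group, with the mean as a point and the lowest to highest library as a line (n = 3). Stmn2 leads in all 4 groups and Six3 is last in all 4, while Pou3f1 drops to 0.566 FPKM in WT day 6 embryoid bodies.

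On the FPKM scale, which allows genes to be compared, Stmn2 had the highest mean level in every group and Six3 the lowest. In Notch1-/- embryoid bodies Stmn2 (72.0 ± 8.26 FPKM) was followed by Otx2 (52.7 ± 14.3) and Zic2 (47.7 ± 7.63), whose ranges overlapped, and then by Nes (17.5 ± 2.43) and Pou3f1 (11.1 ± 8.71), which also overlapped. Map2 (2.11 ± 0.456 FPKM) came next, then Otx1 (0.546 ± 0.206), Sox1 (0.443 ± 0.278) and Pax6 (0.231 ± 0.102) with overlapping ranges, and Six3 (0.0542 ± 0.0265), each n = 3. In WT embryoid bodies the 4 highest genes, Stmn2 (13.2 ± 0.679 FPKM), Otx2 (12.6 ± 3.23), Zic2 (7.44 ± 2.39) and Nes (6.92 ± 0.654), each overlapped with the next. Below them were Map2 (0.569 ± 0.0155 FPKM) and Pou3f1 (0.566 ± 0.189), which overlapped, then Pax6 (0.169 ± 0.0258) and Sox1 (0.130 ± 0.0583), which overlapped, and Otx1 (0.0531 ± 0.00153) and Six3 (0.0215 ± 0.00176). Pou3f1 thus stood above Map2 in Notch1-/- embryoid bodies and level with Map2 in WT embryoid bodies.

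In undifferentiated Notch1-/- cells the order was Stmn2 (173 ± 14.2 FPKM), Otx2 (26.5 ± 6.15), then Zic2 (9.13 ± 6.86), Nes (6.03 ± 2.54) and Pou3f1 (4.60 ± 1.29) with overlapping ranges. Pax6 (1.91 ± 1.38 FPKM) and Map2 (1.08 ± 0.143) overlapped, as did Sox1 (0.212 ± 0.142) and Otx1 (0.101 ± 0.0499), and Six3 had 0.0148 ± 0.00723 FPKM. In undifferentiated WT cells Stmn2 (119 ± 16.6 FPKM) stood alone above Otx2 (18.6 ± 11.6), Zic2 (12.1 ± 5.75), Pou3f1 (8.21 ± 4.53) and Nes (7.84 ± 1.91), each overlapping the next. Pax6 (2.46 ± 1.82 FPKM) and Map2 (1.95 ± 1.19) overlapped, and Sox1 (0.329 ± 0.0376), Otx1 (0.0514 ± 0.0134) and Six3 (0.0278 ± 0.00765) were each separate from the next. Sox1, Otx1 and Six3 were thus low throughout, while the neuronal gene Stmn2 was the highest in every group. The mean of Pax6 lay above that of the neuronal gene Map2 at day 0 and below it at day 6, in both genotypes. Over the 12 libraries Sox1 lay between 0.0683 and 0.758 FPKM, Otx1 between 0.04 and 0.717 and Six3 between 0.0066 and 0.0759. Pax6 reached at most 4.38 FPKM, in a day 0 library, and Map2 at most 3.29 FPKM. The name of the set tells what the genes are known for, and these levels do not by themselves show neural cells in the cultures.

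Over the 12 libraries, the log2 CPM of the 9 genes with counts did not follow a single pattern. Among 36 pairs, Pearson's r was highest for Otx1 with Otx2 (0.826), Map2 with Pou3f1 (0.806) and Stmn2 with Pou3f1 (0.804), and lowest for Pax6 with Six3 (-0.492). The points share 4 groups and 12 libraries, so these values describe the groups as much as the genes. Among 8006 loci linked to a gene and whose log2 CPM averaged 2 or more, the 3 most like Pou3f1 were Foxi3 (r = 0.983), Dtx3l (0.982) and Ugt8a (0.973). Those most like Stmn2 were Pcolce2 (0.992), Nsf (0.985) and Taldo1 (0.982), and those most like Map2 were Ndc1 (0.965), Tcaf2 (0.959) and Arfgef3 (0.953). Otx2 was closest to Kcng3 (0.958), Anp32e (0.943) and E130309D02Rik (0.939), and Otx1 to Tbccd1 (0.947), D130040H23Rik (0.939) and Tnpo1 (0.936). Pax6 was closest to 3 zinc finger genes, Zfp97 (0.967), Zfp980 (0.952) and Zfp600 (0.950), whose reads may be shared with near-identical copies. Nes was closest to Pqbp1 (0.928), Itga8 (0.927) and Nrcam (0.927), a neural cell adhesion molecule, Six3 to Zfp184 (0.914), Tctn3 (0.911) and Cdc7 (0.909), and Sox1 to Cnn1 (0.865), Hmgn3 (0.857) and Mcm4 (0.850).

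Other genes of the neural lineage were counted in 6 lists that leave out the 10 genes above. All lists here and below were also chosen with earlier results of these data known, so their counts beside the shares of all loci are descriptions. At day 6, neuron differentiation genes were mostly higher in Notch1-/- embryoid bodies: 19 of 28 tested were called higher and 1 lower, with a median log2 change of 1.88 against 0.01 over all loci. Of all loci, 13.7% were called higher and 14.4% lower. Celf4, an RNA-binding protein of neurons, averaged 37.5 ± 6.67 CPM in Notch1-/- cells and 7.26 ± 0.367 CPM in WT cells (log2 change 2.37, SE 0.21, adjusted p = 9.41e-06, edgeR). Stmn3, a stathmin related to Stmn2, averaged 11.8 ± 1.65 CPM in Notch1-/- cells and 1.36 ± 0.183 CPM in WT cells (3.11, SE 0.28, adjusted p = 1.28e-05). Dpysl5, a collapsin response mediator of growing axons, averaged 178 ± 24.4 CPM in Notch1-/- cells and 41.1 ± 4.85 CPM in WT cells (2.12, SE 0.23, adjusted p = 4.84e-05; SD, n = 3 each). The count of higher genes was between 14 and 19, and that of lower genes 0 or 1, when each library was left out in turn. The summed level of the list was 979 to 1300 CPM in Notch1-/- libraries and 849 to 932 CPM in WT libraries at day 6, a much smaller gap than in these single genes. Map1b, the 1 gene called lower, makes up a large part of the sum. It averaged 335 ± 120 CPM in Notch1-/- cells and 541 ± 49.8 CPM in WT cells (-0.69, SE 0.23, adjusted p = 0.0365). A further 8 genes were not called, Tubb3 and Gap43 among them.

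The counts of the other lists at day 6 stand against 13.7% of all loci called higher and 14.4% called lower. Of 14 forebrain regulators 5 were higher in Notch1-/- embryoid bodies and 2 lower (median 1.30), with Vax2 (3.72, SE 0.63, adjusted p = 0.000978) and Vax1 (2.40, SE 0.54, adjusted p = 0.00583), homeobox factors of the ventral forebrain and eye, higher and Nr2f1, a nuclear receptor of the cortex (-2.52, SE 0.58, adjusted p = 0.00665) lower. With each library left out in turn, 3 to 6 forebrain regulators were higher and 1 to 2 lower. Of 20 proneural and neurogenic genes 5 were higher and 3 lower (median 0.54). Elavl3, an RNA-binding protein of young neurons, averaged 8.65 ± 6.32 CPM in Notch1-/- cells and 0.607 ± 0.0934 CPM in WT cells (3.83, SE 0.55, adjusted p = 0.000319). Neurod1, a bHLH factor of neuron formation, was higher (1.60, SE 0.29, adjusted p = 0.00159) and Cbfa2t3, a corepressor, was lower (-3.14, SE 0.44, adjusted p = 0.000295). Leaving out each library gave 3 to 7 higher genes and 2 to 3 lower genes in that list. Of 15 other neural plate and progenitor genes 4 were higher and 2 lower (median -0.07). Prom1, a surface protein of neural stem cells and other epithelia (1.52, SE 0.24, adjusted p = 0.00056), and Lrp2, an endocytic receptor of neuroepithelium and visceral endoderm (2.93, SE 0.38, adjusted p = 0.000173), were higher, and Zic1, a relative of Zic2, was lower at 0.862 ± 0.589 CPM in Notch1-/- cells and 8.54 ± 0.681 CPM in WT cells (-3.31, SE 0.54, adjusted p = 0.000784). Here the counts without 1 library were 3 to 5 higher and 2 to 4 lower. Of 17 midbrain, hindbrain and spinal cord regulators 2 were higher (Pax7 and Gbx2, both under 0.5 CPM on average) and 1 lower (Pax3), with a median of 0.38. The count higher was 0 without WT day 6 library 3 or without Notch1-/- day 6 library 1 or 2, and 0 to 3 over all libraries left out. Of 9 glial genes 1 was higher (Sox10) and 1 lower (Sox9), with a median of -0.19.

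Over the 6 days, the counts of the neuron list leaned in opposite directions in the genotypes. In Notch1-/- cells 9 of 28 genes rose and 2 fell (median 0.64 against -0.02 over all loci), where 17.2% of all loci rose and 18.7% fell. Dcx, the doublecortin of migrating neurons (5.69, SE 0.71, adjusted p = 0.000102), and Dpysl5 (2.88, SE 0.24, adjusted p = 8.43e-06) were among those that rose. Dcx rose in WT cells too (3.61, SE 0.66, adjusted p = 0.000946), and the difference between its changes was not called (2.09, SE 0.95, adjusted p = 0.185). Mapt, which encodes tau (-2.06, SE 0.27, adjusted p = 0.000143), and Tubb3 (-1.75, SE 0.29, adjusted p = 0.000602) fell. In WT cells 2 rose and 13 fell (median -0.94 against -0.12 over all loci), where 18.4% of all loci rose and 24.7% fell. The falls included Celf4 (-2.10, SE 0.21, adjusted p = 1.33e-05), Crmp1 (-2.49, SE 0.28, adjusted p = 3.47e-05) and Mapt (-2.32, SE 0.27, adjusted p = 4.6e-05). The direct test of the difference called 13 of the 28 genes in the positive direction and 0 in the negative (median 1.76 against 0.08 over all loci). Of all loci, 6.36% were called in the positive direction and 4.92% in the negative. Stmn3 (3.56, SE 0.38, adjusted p = 0.000228), Dpysl5 (2.69, SE 0.32, adjusted p = 0.000361) and Crmp1 (2.95, SE 0.39, adjusted p = 0.000614) had the smallest p. Left out one at a time, the libraries gave 12 to 13 genes, and in Notch1-/- cells over time 5 to 10 rises, of which 5 is near the share over all loci.

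The other lists over time stand against 17.2% of all loci that rose and 18.7% that fell in Notch1-/- cells, and 18.4% that rose and 24.7% that fell in WT cells, and counts near these shares say nothing about a list. Of the 15 other neural plate and progenitor genes, 8 rose and 0 fell in Notch1-/- cells and 7 rose and 3 fell in WT cells. With each library left out, 6 to 8 rose and 0 to 1 fell in Notch1-/- cells, and 5 to 8 rose and 2 to 3 fell in WT cells. Cdh2, the N-cadherin of neural plate and mesoderm, rose by 3.41 (SE 0.28, adjusted p = 8.1e-06) in Notch1-/- cells and by 3.29 (SE 0.28, adjusted p = 4.69e-06) in WT cells. Zfp521, a zinc finger factor of neural commitment, rose by 3.70 (SE 0.43, adjusted p = 6.34e-05) in Notch1-/- cells and by 3.22 (SE 0.42, adjusted p = 8.77e-05) in WT cells. Of the 20 proneural and neurogenic genes, 5 rose and 1 fell in Notch1-/- cells and 3 rose and 8 fell in WT cells. The ranges over the libraries left out were 4 to 6 rises and 0 to 3 falls in Notch1-/- cells (3 falls without Notch1-/- day 0 library 1) and 3 to 4 rises and 6 to 8 falls in WT cells. Dll1, a Notch ligand of forming neurons and mesoderm, rose by 2.77 (SE 0.59, adjusted p = 0.00325) in Notch1-/- cells, and the difference between the genotypes' changes was 5.20 (SE 0.83, adjusted p = 0.00207). Forebrain regulators gave 3 rises and 4 falls of 14 in Notch1-/- cells and the same counts in WT cells, and Vax1 rose in both, by 7.03 (SE 0.71, adjusted p = 2.54e-05) in Notch1-/- cells and by 4.46 (SE 0.64, adjusted p = 0.000179) in WT cells. The falls of forebrain regulators numbered 2 to 5 in Notch1-/- cells (2 without Notch1-/- day 6 library 1) and 3 to 5 in WT cells with each library left out. Midbrain, hindbrain and spinal cord regulators gave 3 rises and 6 falls of 17 in Notch1-/- cells and 2 rises and 8 falls in WT cells. The rises in Notch1-/- cells lie near the share over all loci. Without 1 library these counts were 1 to 3 rises and 3 to 7 falls in Notch1-/- cells, with 3 falls without Notch1-/- day 6 library 1 or 3. In WT cells they were 0 to 2 rises, with 0 without WT day 0 library 3, and 4 to 8 falls, with 4 or 5 without any one of the WT day 6 libraries. The 9 glial genes gave 3 rises and 3 falls in each genotype, and 2 to 3 rises and 1 to 3 falls in each with a library left out.

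**Figure D4:**
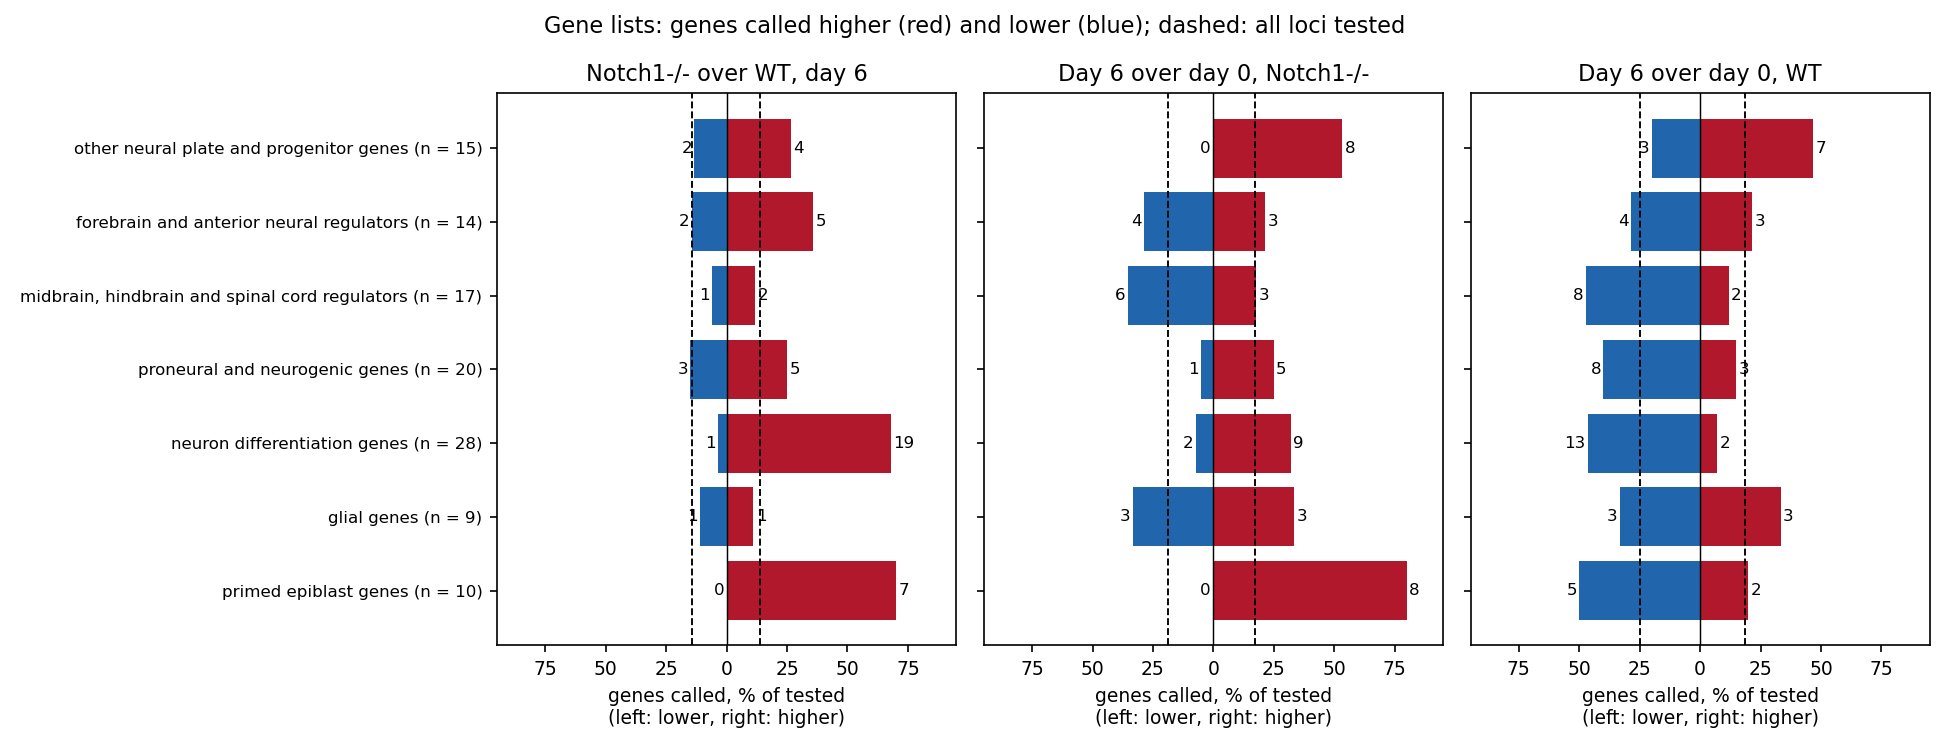
Share of tested genes called higher (red, to the right) and lower (blue, to the left) in the neural lists and the primed epiblast list, with the number of genes at each bar and the shares over all loci tested as dashed lines. The neuron and primed epiblast lists reach far beyond the dashed line on the higher side in the contrast of Notch1-/- with WT at day 6 (19 of 28 and 7 of 10 genes).

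Genes of other cells that the cultures could hold moved with the contrast at day 6, where 13.7% of all loci were called higher and 14.4% lower. At day 6, 7 of 10 tested primed epiblast genes were higher and 0 lower in Notch1-/- embryoid bodies (median 1.42), and the list summed to 1720, 1460 and 2920 CPM in Notch1-/- libraries 1, 2 and 3, against 561, 581 and 600 CPM in WT libraries. Fgf5, which marks primed epiblast, averaged 144 ± 26.4 CPM in Notch1-/- cells and 9.61 ± 5.57 CPM in WT cells (3.90, SE 0.54, adjusted p = 0.000252, edgeR). Dnmt3b alone averaged 1250 ± 596 CPM in Notch1-/- cells. The summed level was highest in library 3, as were Otx2, Zic2 and Pou3f1. So were Sox1, Six3, Nes and Map2, while Otx1, Pax6 and Stmn2 were not, so this was not particular to epiblast genes. Leaving out each library in turn gave 5 to 7 higher epiblast genes in this contrast, and 3 to 8 in Notch1-/- cells over time, where 8 rose and 0 fell. Primitive streak genes were also higher at day 6 (7 of 11 higher and 1 lower, summed level 265 to 372 CPM in Notch1-/- libraries and 149 to 168 CPM in WT libraries). Visceral endoderm genes (0 of 11 higher and 7 lower, 96.2 to 128 CPM in Notch1-/- libraries and 465 to 550 CPM in WT libraries), endothelial genes (0 of 9 higher and 8 lower, 121 to 292 CPM in Notch1-/- libraries and 365 to 582 CPM in WT libraries) and feeder fibroblast genes (1 of 18 higher and 10 lower, 142 to 171 CPM in Notch1-/- libraries and 1210 to 1640 CPM in WT libraries) ran the other way. At day 0 the feeder list was higher and more uneven, at 945, 3760 and 5290 CPM in Notch1-/- libraries 1, 2 and 3 and 2420, 2400 and 4910 CPM in WT libraries, and it fell over time in both genotypes (0 of 18 rose and 16 fell in Notch1-/- cells, 2 rose and 10 fell in WT cells). With each library left out, 0 to 6 of the feeder genes rose in WT cells (0 without WT day 6 library 1 or 2, and 6 without WT day 0 library 3) and 9 to 10 fell. In WT at day 6, Col1a1 (735 ± 218 CPM) led the list, and Postn averaged 137 ± 26.4 CPM, against 50.2 ± 26.0 CPM at day 0. Lox and Inhba, 2 of 7 genes not called between genotypes at day 6, averaged 1.32 and 1.70 CPM in WT, against 217 and 488 CPM at day 0. The list's level at day 6 therefore does not by itself show feeder cells. The part that these other cells have in the levels of the 10 genes was not tested.

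The lists held 6 genes with 0 counts in all 12 libraries (Sox3, Irx3, Neurog3, Fgf15, Evx1 and Gsc), and each shared at least 99.8% of its exon length with other loci. By FPKM they were not at 0. Sox3, a neural plate and epiblast factor related to Sox1, had 1.21, 1.35 and 4.35 FPKM in Notch1-/- libraries and 1.77, 2.66 and 1.80 FPKM in WT libraries at day 6. Gsc, a factor of the anterior streak, had 19.7, 16.3 and 8.99 FPKM in Notch1-/- libraries and 1.15, 1.73 and 1.77 FPKM in WT libraries at day 6.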

How the data were processed

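The 10 genes and all gene lists were chosen with earlier results of these data known. For every locus the authors deposited a raw count and an FPKM value (scaled for transcript length and library size) in each library, and the merged transcript models with exons in mm9 coordinates. Build mm9 and the tools DESeq, HTSeq 0.5.4p3, TopHat2 2.0.8 and Cufflinks 2.1.1 come from the submitters' processing notes, which give no settings. The files pair loci with no gene symbols. Loci were linked to GENCODE M21 genes by the lengths of consecutive exons and introns and, for genes of few exons, by their distances to linked neighbours on both sides (tolerance 100 bases), with no coordinates converted. In this way 18375 loci found a single gene, 18176 of them under a symbol that no other locus had. Of the total, 1934 rest on distances alone, Sox1 and Pou3f1 among them. Zic2 rests on a single run of consecutive exon and intron lengths. In a check, genes displaced by 50000 bases gave 128 matches by distance. Names are therefore inferred.

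Counts of all 12 libraries were fitted with edgeR 4.0.16 (R 4.3.3; TMM scaling, filterByExpr, quasi-likelihood test, 1 mean per group), which tested 23991 loci. FPKM were tested with limma 3.58.1 on log2(FPKM + 1) over 18505 loci with a mean of at least 0.1. Such fold changes understate those of low genes. Adjusted p-values are Benjamini-Hochberg over all loci tested. Scripts were tested on simulated data. Counting error is small at this depth: replicates differed with a chi-square of 41.9 to 278 per degree of freedom. Genes named from a list are the up to 3 per contrast with the smallest p among those called. Genes named as alike are the 3 loci with the highest r and a mean log2 CPM of at least 2. Where a count was 5 or fewer its genes are named, unless they are on a list.

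The labels number the libraries within each group. Deviations of same-numbered libraries from their group means correlated at 0.398, 0.275 and 0.165 between Notch1-/- and WT at day 0. WT library 2 with Notch1-/- library 3 reached 0.132. The numbers were taken to pair these libraries, but the submitters' own library names number them differently except for library 1. By those names WT library 3 matches Notch1-/- library 2, and the correlation of these 2 was -0.042. The pairing is therefore assumed. In each other contrast at least 1 pair was at 0.1 or below. Alternatives were DESeq2 1.42.0, upper quartile scaling, no filter, only the 2 groups compared, a replicate block, loci with under 50% shared exons, FPKM with either pseudocount (1 or 0.1), and each library left out.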

Additional observations from a re-analysis of the deposited data

Results flagged for a closer look

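The change from day 0 to day 6 differed between the genotypes, by a test of the difference itself (change in Notch1-/- cells minus change in WT cells, edgeR), for 5 of the 9 genes with counts, and for Zic2 by FPKM with limma. The log2 difference was 5.05 for Pou3f1, 2.56 for Map2, 2.24 for Otx1, 1.90 for Stmn2 and 1.84 for Nes, and 3.07 for Zic2 on the log2(FPKM + 1) scale. Stmn2 fell in both genotypes, and less so in Notch1-/- cells. Groups of 3 libraries were not tested for single libraries that stand apart.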

How the results depend on the processing

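Of 951 values of single genes under other settings, 893 kept their direction and their side of the threshold, 25 lost a call, 23 gained one and 10 changed sign, none of these 10 called in the test reported. Those 10, with the range over all libraries left out in turn, were Otx1 over time in WT cells (-0.07 with upper quartile scaling and without WT day 0 replicate 3, -0.02 without replicate 1; range -0.07 to 0.45), Otx2 (0.31; range -0.84 to 0.31) and Nes (0.18; range -0.29 to 0.18) over time in WT cells without WT day 0 replicate 2, Pax6 between genotypes at day 6 (-0.03 with the replicate block, -0.08 without Notch1-/- day 6 replicate 2; range -0.08 to 0.42), Pax6 between genotypes at day 0 (0.49 without WT day 0 replicate 2, 0.09 without Notch1-/- day 0 replicate 1; range -0.95 to 0.49) and the difference of changes of Pax6 (-0.36 without WT day 0 replicate 2; range -0.36 to 1.07). The cause was not tested.

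The members called higher in Notch1-/- cells over time numbered 2 to 6 with each library left out, against 4 in the test reported (2, Otx1 and Nes, without Notch1-/- day 6 replicate 3). Those called lower numbered 1 (Stmn2) with only loci under 50% shared, where Pax6 was not among the loci tested, and 1 on FPKM + 1, against 2. Between genotypes at day 0 the count higher was 0 in a fit of the 2 groups only and 0 to 3 with each library left out, against 1, and the count lower 0 to 1, against 0. Between genotypes at day 6 the count higher was 6 to 8, against 7, and that of the difference of changes 4 to 6, against 5. By FPKM, members higher over time in Notch1-/- cells numbered 3 to 5 and members lower 1 to 2 with each library left out, against 3 and 1 (2 lower with a pseudocount of 0.1 and 2 with the replicate block). At day 0 by FPKM the counts were 0 to 1 higher, against 1, and 0 to 1 lower, against 0.

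With the replicate number as a block, 5 members were higher over time in Notch1-/- cells (Pou3f1 was added, 1.02, adjusted p = 0.0147) and 6 in the difference of changes (Sox1 was added, 2.38, adjusted p = 0.0492). DESeq2 added Sox1 to the falls in WT cells (-1.26, adjusted p = 0.0496) and to the difference of changes (2.18, adjusted p = 0.0358). The block changed no call between genotypes at day 0, where the numbers were taken to pair the libraries. Depth limits Six3 most, at 4 to 62 counts per library.
Of the lists, a count of 0 in the text became 1 at an unadjusted p under 0.05 for progenitor genes (Sox21, 0 with DESeq2) and for primed epiblast genes (Foxd3, 1 with DESeq2) falling over time in Notch1-/- cells. The other counts of 0 in the lists described were 0 by both.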
